A study of Mus musculus with 19 samples.

Results

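H3K27me3 and H3K9me2, a pair of repressive histone marks, were compared in unperturbed embryonic stem cells (ESCs) of the mouse, cultured cells that can form every tissue of the embryo, to see how their territories divided the genome and its genes. The libraries were chosen by their labels: 3 control H3K27me3 libraries and 3 control H3K9me2 libraries, each with 1 library at day 4 and 2 at day 8, with 1 input library of chromatin that had not been immunoprecipitated as reference, out of 19 libraries in all. The cells were labelled as ESCs of E14 background and wild-type genotype. The wider study deleted Dnmt1, the gene of the maintenance DNA methyltransferase, with a tamoxifen-induced Cre in a floxed line, and followed 3 marks over the days after deletion. By the methods, cells grew in serum and LIF, with or without feeder cells, and the methods name a C57BL/6 line where the labels give E14. The H3K27me3 libraries used antibodies of 2 catalogue numbers, one of them only in the second day 8 library, and the H3K9me2 libraries a single antibody. A difference between marks and a difference between antibodies in how well they enrich cannot be told apart.

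H3K27me3 is laid down by Polycomb repressive complex 2, whose catalytic subunit is EZH2, and in ESCs it is known for covering CpG islands of silent developmental regulators. H3K9me2 is laid down mainly by G9a and GLP, the products of Ehmt2 and Ehmt1, and is known as a broad, shallow mark over large parts of the silent genome. Both marks are associated with repression, through different enzymes and readers.

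The libraries held 22947678, 20789553 and 22268461 reads for H3K27me3 and 14627174, 22103840 and 16216366 for H3K9me2, each in the order day 4, day 8 replicate 1 and day 8 replicate 2, which is kept throughout, and the input held 19010249. Levels are log2 over input, that is, the log2 ratio of a library to the input after each was scaled to reads spread evenly over the genome, and a difference is the H3K27me3 level minus the H3K9me2 level, in log2 units. A level is relative to the library's own total, so a mark that covered much of the genome thinly could not rise far above 0. The input cancels from the difference, which can therefore be large where both marks lie below the input, and the levels of both are given for this reason. Correlations of 100 kb windows, over 25514 windows, were 0.970 to 0.978 between H3K27me3 libraries and 0.919 to 0.970 between H3K9me2 libraries, and the median between marks was 0.13. Neighbouring windows and the shared input make these correlations a description. Replicates of a mark differed beyond sampling noise. Separate cultures are not stated for them, and the methods of the study describe the ChIP-seq data as a single measurement and call no significant differences from them, whereas the labels number the libraries as replicates. The p-values given here measure only the spread between these libraries, which may be technical. The labels were not checked by expression, since histone marks do not measure it.

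Promoter sequences give the first view of the division. The 300 bases before the start site are printed for 5 genes, 2 of those with the strongest H3K27me3 excess and 3 of those with the strongest H3K9me2 excess by the naming rule, to show how CpG sites differ between both kinds of promoter. They were read from the NCBIM37 genome, on the strand of the gene and 5′ to 3′, with every CG in capitals.
Skor1: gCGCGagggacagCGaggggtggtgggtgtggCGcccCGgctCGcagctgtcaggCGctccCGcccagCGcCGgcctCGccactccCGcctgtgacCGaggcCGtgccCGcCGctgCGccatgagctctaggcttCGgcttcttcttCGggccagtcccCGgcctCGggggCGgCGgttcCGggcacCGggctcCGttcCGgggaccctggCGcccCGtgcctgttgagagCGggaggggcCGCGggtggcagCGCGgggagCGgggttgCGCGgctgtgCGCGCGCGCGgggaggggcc
Ebf3: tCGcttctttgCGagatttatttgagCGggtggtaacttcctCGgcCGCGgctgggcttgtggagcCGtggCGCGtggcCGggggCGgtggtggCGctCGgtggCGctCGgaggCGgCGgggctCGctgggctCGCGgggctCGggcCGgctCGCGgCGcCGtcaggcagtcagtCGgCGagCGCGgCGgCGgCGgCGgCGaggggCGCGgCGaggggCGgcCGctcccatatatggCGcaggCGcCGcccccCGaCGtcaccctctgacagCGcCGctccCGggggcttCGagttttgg
Igll1: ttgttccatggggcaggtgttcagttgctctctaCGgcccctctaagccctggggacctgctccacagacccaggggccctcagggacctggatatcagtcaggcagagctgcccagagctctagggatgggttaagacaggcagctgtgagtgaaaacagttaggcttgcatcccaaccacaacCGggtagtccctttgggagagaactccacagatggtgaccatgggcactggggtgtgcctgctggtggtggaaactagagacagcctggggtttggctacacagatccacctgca
Actbl2: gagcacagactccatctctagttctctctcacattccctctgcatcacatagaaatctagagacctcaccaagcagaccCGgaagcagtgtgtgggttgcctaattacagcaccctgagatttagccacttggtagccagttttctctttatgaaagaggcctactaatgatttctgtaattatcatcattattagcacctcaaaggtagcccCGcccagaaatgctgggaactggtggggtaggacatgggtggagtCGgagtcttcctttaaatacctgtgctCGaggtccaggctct
Olfr510: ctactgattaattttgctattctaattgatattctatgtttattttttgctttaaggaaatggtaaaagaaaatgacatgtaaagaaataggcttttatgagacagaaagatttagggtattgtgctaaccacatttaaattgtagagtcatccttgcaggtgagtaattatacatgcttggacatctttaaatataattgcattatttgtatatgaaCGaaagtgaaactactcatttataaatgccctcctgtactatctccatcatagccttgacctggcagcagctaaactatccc
Skor1 (chr9:62996769-62997068, minus strand) held 42 CG sites and Ebf3 (chr7:144506129-144506428, minus strand) 49. Igll1 (chr16:16864079-16864378, minus strand) held 2, Actbl2 (chr13:112044921-112045220, plus strand) 4 and Olfr510 (chr7:115810632-115810931, plus strand) 1. Among 23634 genes with sequence, 2.75% of these 300-base windows held as many CG sites as Skor1 or more, and 94.1% held as many as Olfr510 or more. The median was 14 CG sites (quartiles 7 and 23) in 12391 promoters higher in H3K27me3 and 2 (quartiles 1 and 3) in 1560 promoters higher in H3K9me2, of which 20.8% held none. The median over all of these genes was 9. Evx2, also named for its H3K27me3 excess but not printed, held 12 CG sites, below the median of 14. As many or more were held by 44.6% of these windows, so the printed genes show a sharper contrast than some others.

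Seen in windows of 100 kb, the genome was divided unequally, with H3K9me2 higher in more windows and the largest differences towards H3K27me3. Of 25514 windows tested, 21356 passed limma at a Benjamini-Hochberg adjusted p of 0.05, which is 83.7%. H3K27me3 was higher in 7070 windows (27.7%) and H3K9me2 in 14286 (56.0%). The largest difference reached 6.66 towards H3K27me3 and 1.84 towards H3K9me2. Typical sizes were closer, with a median difference of 0.69 in windows higher in H3K27me3 and -0.57 in those higher in H3K9me2. The 95th percentiles of size were 2.22 and 0.98, so the upper tails differed most. Windows higher in H3K27me3 had a median H3K27me3 level of 0.49 and a median H3K9me2 level of -0.27, and in 5472 of them (77.4%) all 3 H3K27me3 libraries lay above the input. Windows higher in H3K9me2 had a median H3K9me2 level of 0.13 and a median H3K27me3 level of -0.45. There all 3 H3K9me2 libraries lay above the input in 8285 windows (58.0%), whereas all 3 H3K27me3 libraries lay below it in 12509 (87.6%). A window called for H3K9me2 was thus more often one low in H3K27me3 than one rich in H3K9me2. Since the median window differed by -0.29, the split depended on the reference: after the median of each library was set to 0, 10059 windows were higher in H3K27me3 and 9284 in H3K9me2. With the further condition of a 2-fold difference, 2206 windows were higher in H3K27me3 and 594 in H3K9me2.

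In finer windows H3K9me2 was again higher in more regions. In windows of 10 kb, 171370 of 252313 passed (67.9%), with H3K27me3 higher in 49318 (19.5%) and H3K9me2 in 122052 (48.4%), and with medians set to 0 the numbers were 71460 and 55132. In single tiles of 2 kb, 379547 of 1159945 passed (32.7%), with H3K27me3 higher in 148509 (12.8%) and H3K9me2 in 231038 (19.9%), which became 189467 and 86649 with medians set to 0. The median differences were -0.38 for 10 kb windows and -0.37 for tiles. The order depended on the condition, however. With a 2-fold difference, H3K27me3 was higher in 26275 windows of 10 kb and 138637 tiles and H3K9me2 in 24439 and 193482, so that in single tiles, unlike in 100 kb windows, H3K9me2 led at this size too. Among the 265834 tiles with a mean of at least 20 reads H3K27me3 was higher in 85768 and H3K9me2 in 42346. That mean is over the same 6 libraries, so a tile can pass through its higher mark, and the filter is not neutral between marks. With day 8 alone the numbers of tiles were 106952 and 102874.

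The Hox clusters, whose homeobox transcription factors pattern the body axis, led the H3K27me3 windows. The window over the HoxA cluster, from 52100001 to 52200000 on chromosome 6, held 18395, 21872 and 17464 H3K27me3 reads against 142, 188 and 124 H3K9me2 reads and 761 input reads. Every H3K27me3 library lay far above the input and every H3K9me2 library far below it, and the difference was 6.66 (SE 0.12, limma adjusted p = 4.1e-13). The windows over HoxB (chromosome 11 from 96100001), HoxD (chromosome 2 from 74500001) and HoxC (chromosome 15 from 102800001) followed with differences of 6.34, 5.83 and 5.25. The remaining named window, on chromosome 15 from 98600001, differed by 4.69 and held the signalling ligand genes Wnt1 and Wnt10b beside Ddn, Prkag1 and Mll2. The 5 named H3K9me2 windows lay inside or across long genes. The window inside Msh3, a mismatch repair gene, from 93000001 to 93100000 on chromosome 13, held 381, 256 and 331 H3K27me3 reads, 754, 1144 and 854 H3K9me2 reads and 751 input reads. There H3K9me2 was modestly above the input at 0.40 and H3K27me3 well below it at -1.44, a difference of -1.84 (SE 0.10, limma adjusted p = 2.8e-09). The windows in Dock1 and Fam196a, Kif16b, Herc2 and Oca2, and Tbc1d22a differed by -1.83, -1.75, -1.72 and -1.71, with H3K9me2 levels of 0.58, 0.46, 0.35 and 0.77.

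Consecutive 10 kb windows called in the same direction were joined into runs. H3K27me3 formed 20006 runs covering 493 Mb and H3K9me2 33406 runs covering 1221 Mb. The median run was 20 kb for both, but the upper tails differed, with the 90th percentile at 50 kb for H3K27me3 and 80 kb for H3K9me2. Runs of 100 kb or more held 16.0% of the H3K27me3 length (547 runs) and 34.4% of the H3K9me2 length (2586 runs). The longest H3K27me3 run, 710 kb on chromosome 11 from 95940001 to 96650000, spanned the HoxB genes and 15 protein-coding genes in all. Inside it the median 10 kb window had an H3K27me3 level of 1.11 and an H3K9me2 level of -1.11, against 0.14 and -1.39 in windows outside the run within 1500 kb of its centre. The median H3K9me2 level was thus low across the neighbourhood, while that of H3K27me3 was raised inside the run. The next H3K27me3 runs were 480 kb over Gse1, Gins2 and Fam92b on chromosome 8 and 410 kb over Bmp7, a bone morphogenetic protein, and Tcfap2c, a transcription factor, on chromosome 2. The longest H3K9me2 run, 730 kb on chromosome 19 from 52160001 to 52890000, held a single protein-coding gene, Ins1. Its median levels were 0.31 for H3K9me2 and -0.57 for H3K27me3, against 0.10 and -0.33 around it. The next were 720 kb with Thsd7b, 680 kb with Khdrbs3, 670 kb with no protein-coding gene and 660 kb with Nell2 and Tmem117. The runs rest on the same calls as the windows, so their lengths are a description.

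**Figure D1:**
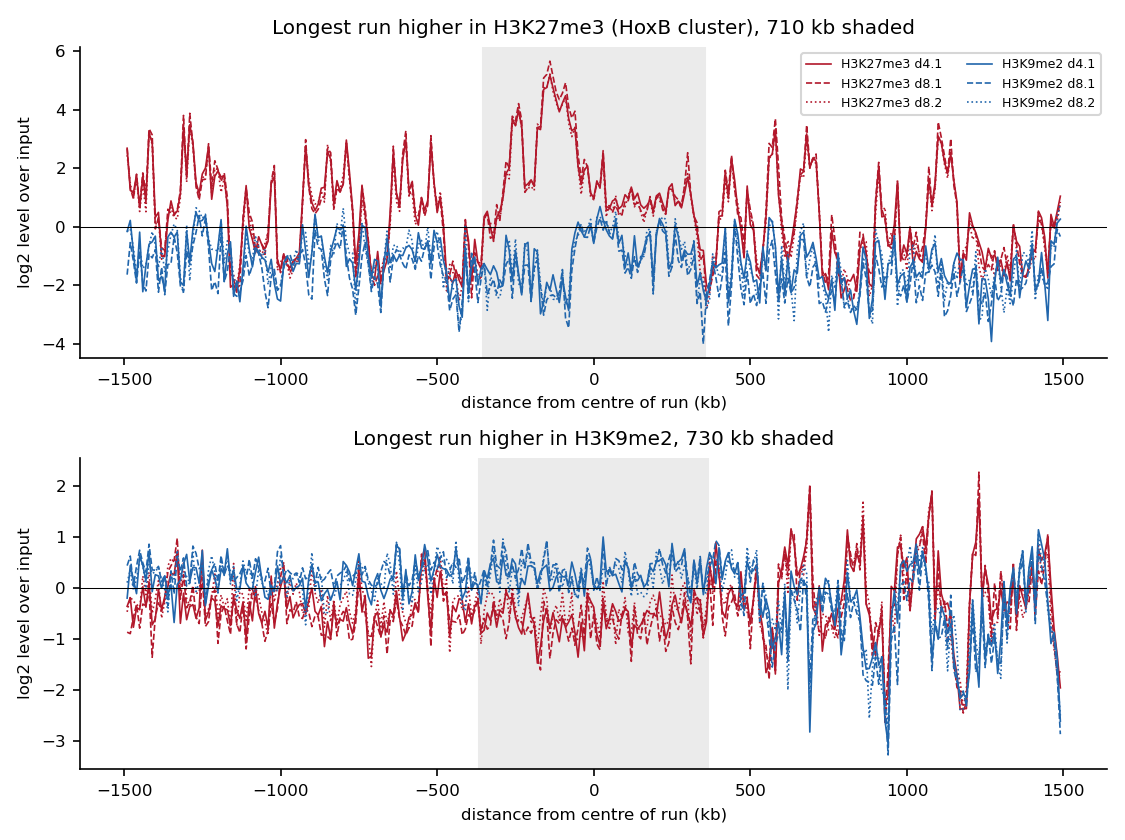
Levels of the 3 H3K27me3 libraries (red) and 3 H3K9me2 libraries (blue) as log2 over input in 10 kb windows (y axis) against the distance in kb from the centre of the longest H3K27me3 run (top, HoxB, 710 kb) and the longest H3K9me2 run (bottom, 730 kb), both shaded. H3K27me3 windows reach 5.35 inside the top run, while inside the bottom run H3K9me2 stays within -0.20 and 0.83 of the input.

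A stricter division asked where a mark was itself enriched, taking a region as marked where all 3 libraries lay at least 1.5-fold above the input. Of 252313 windows of 10 kb, 24224 (9.60%) carried H3K27me3 alone, 11606 (4.60%) H3K9me2 alone, 1861 (0.738%) both and 214622 (85.1%) neither. Per library, the share of windows at least 1.5-fold above the input was 14.1%, 13.2% and 13.3% for H3K27me3 (mean 13.5%, SD 0.529, n = 3) and 12.7%, 10.8% and 12.1% for H3K9me2 (mean 11.9%, SD 0.975, n = 3). These groups did not overlap, and the two-sided exact permutation test gave p = 0.1, the smallest that 3 libraries against 3 allow. With the mean of tile values in place of summed reads the shares were 12.8% and 12.2%, the groups overlapped and p was 0.3 by the same exact test. At a limit of 25% above the input the order turned, to 20.8% for H3K27me3 and 28.3% for H3K9me2. H3K27me3 was also the more concentrated mark: the 1% of windows richest in each library held 8.79%, 11.2% and 8.70% of H3K27me3 reads and 3.57%, 3.67% and 3.41% of H3K9me2 reads, against 3.91% of input reads. By this measure H3K9me2 was no more concentrated than the input, but the richest 10% of windows held 18.8%, 18.4% and 18.4% of its reads against 16.1% of input reads. Windows with both marks had a median of 11.6 input reads per tile, against 14 in windows with H3K27me3 alone, and marks on different alleles or in different cells cannot be told apart from marks on the same chromatin.

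Between the poorest and the richest classes of gene and CpG density, the marks went in opposite directions. In the 14511 windows of 100 kb without a protein-coding start site, H3K9me2 was higher in 78.0% and H3K27me3 in 8.86%. In the 223 windows with 7 or more start sites, H3K27me3 was higher in 83.9% and H3K9me2 in 13.0%. Between these extremes the H3K27me3 level went from -0.23 to 0.87 and the H3K9me2 level from 0.16 to -0.78, and the difference from -0.38 (SE 0.03) to 1.65 (SE 0.11). By CpG sites per 2 kb tile, tiles with up to 5 sites had an H3K27me3 level of -0.48 ± 0.07 (SD, n = 3) and an H3K9me2 level of 0.00 ± 0.08, and tiles with more than 120 sites had levels of 2.71 ± 0.30 and -2.61 ± 0.19. In the latter class the H3K27me3 libraries gave 2.61, 3.05 and 2.48 and the H3K9me2 libraries -2.39, -2.76 and -2.67. The marks crossed between the class of 11 to 20 sites, with a difference of -0.15, and that of 21 to 40 sites, with 0.34. The first day 8 library of each mark showed the steepest slope with CpG. CpG density moves with GC content, and the part of GC content in the sequencing of these levels was not tested class by class.

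**Figure D2:**
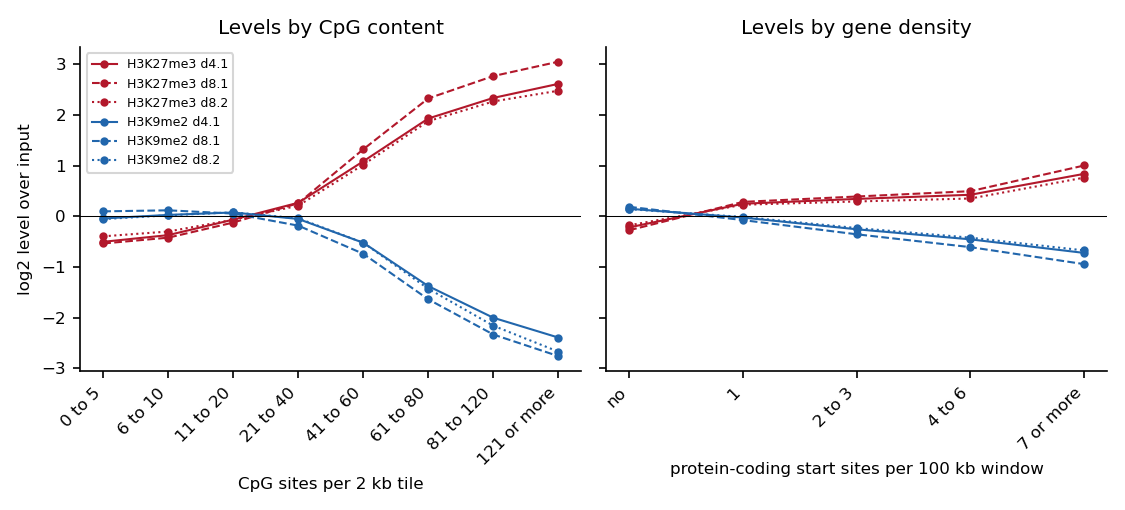
Levels as log2 over input (y axis) of each H3K27me3 library (red) and H3K9me2 library (blue) by CpG sites per 2 kb tile (left) and by protein-coding start sites per 100 kb window (right). H3K27me3 rises along both axes, H3K9me2 falls with gene density and, beyond 20 CpG sites, with CpG density, and the libraries of a mark stay together.

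By annotation, promoter tiles had an H3K27me3 level of 1.32 ± 0.19 (SD, n = 3) and an H3K9me2 level of -0.73 ± 0.08. They made up 2.61% of tiles and held 6.17% of H3K27me3 reads and 2.52% of input reads, and the share of H3K9me2 reads was below that of the input. Gene bodies lay near the input in both marks, at -0.07 and -0.08. Intergenic tiles within 50 kb of a gene had 0.33 for H3K27me3 and 0.02 for H3K9me2, those 50 to 500 kb away -0.19 and 0.20, and those farther away -0.52 and 0.07. H3K27me3 thus stayed near genes, and H3K9me2 had its highest annotation class at middle distances from them.

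The contrast between marks was strongest at CpG-rich start sites. Around 7665 start sites with at least 60 CpG sites per promoter tile, the H3K27me3 level was 1.94 ± 0.27 (SD, n = 3) in the tile of the start site and the H3K9me2 level -2.27 ± 0.17. The typical promoter had less H3K27me3. Median levels of tested promoters were 0.52 with 60 to 80 CpG sites, 0.89 with 80 to 120 and 1.68 with 120 or more. With 60 to 80 sites, H3K9me2 lay below the input even at its 90th percentile (-0.62). H3K27me3 there ran from -1.39 at its 10th percentile to 3.44 at its 90th, so low H3K9me2 was not limited to promoters with H3K27me3. In the profiles, the levels were 0.60 and -0.52 at 10 kb upstream and 0.27 and -0.66 at 10 kb downstream. At 50 kb they were 0.38 and -0.33 upstream and 0.25 and -0.38 downstream. Around 5253 start sites with fewer than 20 CpG sites, the levels at the start were 0.09 and 0.11. In these profiles the peak and the trough thus stood at CpG-rich and not at CpG-poor start sites. The profiles leave out the 1% of tiles with most input reads, a choice made after seeing the data.

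**Figure D3:**
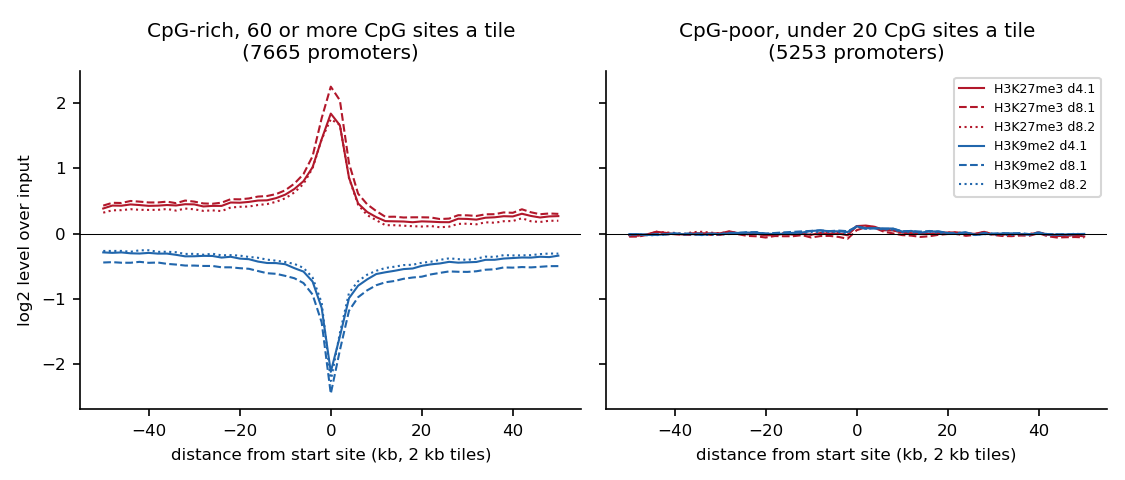
Levels as log2 over input (y axis) against distance from the start site in kb (x axis) for CpG-rich (left) and CpG-poor (right) promoters, 1 line per library, H3K27me3 red and H3K9me2 blue. In the CpG-rich profile H3K27me3 peaks at 1.94 where H3K9me2 dips to -2.27, and in the CpG-poor profile both lie close to the input.

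Promoters, taken as the 1 kb before a start site, leaned to H3K27me3. Of 20853 tested, 13954 passed (66.9%), with H3K27me3 higher at 12394 (59.4%) and H3K9me2 at 1560 (7.48%), and the median difference was 1.27. The H3K9me2 number was the less stable, at 1017 after GC correction and 1001 without the first day 8 H3K27me3 library. With medians set to 0 the numbers were 6975 and 7278, so the lean is relative to the whole genome and not to other promoters. Promoters higher in H3K27me3 had median levels of 1.10 for H3K27me3 and -1.63 for H3K9me2, and at 8632 of them (69.6%) all 3 H3K27me3 libraries lay above the input, while at 2337 (18.9%) all 6 libraries lay below it. Promoters higher in H3K9me2 had median levels of 0.29 for H3K9me2 and -0.76 for H3K27me3, and all 3 H3K9me2 libraries lay above the input at 828 (53.1%). A further 2787 promoters had too few reads to be tested, and 1992 of these had at least 5 input reads per tile, with a median of 82 CpG sites per tile, so that CpG-rich promoters with few reads of either mark are missing from these counts. By the 1.5-fold division, 7259 promoters (34.8%) carried H3K27me3 alone, 456 (2.19%) H3K9me2 alone, 331 (1.59%) both and 12807 (61.4%) neither. Per library, 42.6%, 43.7% and 41.2% of promoters lay at least 1.5-fold above the input in H3K27me3 (mean 42.5%, SD 1.23) and 9.26%, 6.88% and 9.44% in H3K9me2 (mean 8.53%, SD 1.43; exact permutation test, two-sided, p = 0.1, the smallest possible).

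The share of promoters called for H3K27me3 rose with CpG sites from 4.98% of those with fewer than 10 sites per tile to 95.9% of those with 120 or more, and the share called for H3K9me2 fell from 31.1% to 0 of 831. Among the CpG-densest promoters, however, 60.9% lay at least 1.5-fold above the input in H3K27me3, and their median level was 1.68 with a 90th percentile of 4.49. Their median H3K9me2 level was -2.25. The call was thus nearly general in that class, and the enrichment itself was not. Promoters of 1111 lincRNAs, long intergenic non-coding RNAs, were higher in H3K27me3 at 753 and in H3K9me2 at 61, with a median difference of 1.70. Over all promoters tested the shares were 59.4% and 7.48% and the median difference was 1.27, so the lincRNA counts were near the background.

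**Figure D4:**
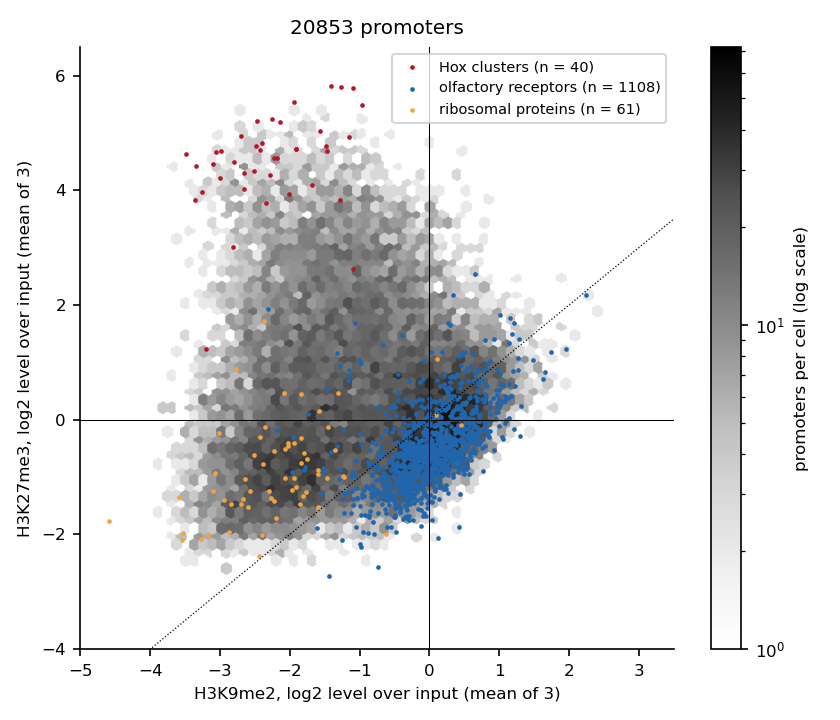
H3K27me3 level (y axis) against H3K9me2 level (x axis), both as the mean log2 over input of 3 libraries, for 20853 promoters, with shade for the number of promoters on a log scale. Hox genes (red, n = 40) sit at the top left, olfactory receptors (blue, n = 1108) around the input in H3K9me2 and below it in H3K27me3, and ribosomal protein genes (orange, n = 61) mostly below the input in both marks.

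Under the naming rule (protein-coding genes 100 kb apart, with a mean of at least 20 reads in the higher mark), the promoters with the strongest H3K27me3 excess belonged mainly to developmental regulators. The largest difference of any promoter was 9.14. Skor1 (ENSMUSG00000022245, chromosome 9, 62985977 to 62996768), a transcriptional corepressor gene, had 563, 629 and 481 H3K27me3 reads and 0, 0 and 1 H3K9me2 reads, with 11 input reads. H3K27me3 lay at 5.32 and H3K9me2 at -3.12 over input, and the difference was 8.44 (SE 0.37, limma adjusted p = 1.2e-07). With a single H3K9me2 read, the ratio of scaled reads was 1342 with an exact 95% interval of 241 to 53046, which covers counting error only. Evx2, a homeobox gene next to the HoxD cluster, had 944, 1222 and 1033 H3K27me3 reads and 1, 3 and 1 H3K9me2 reads, a difference of 8.38. Hoxa9, in the HoxA cluster, had 1018, 1323 and 949 against 4, 2 and 1, a difference of 8.11. The rule required large differences and no overlap between libraries of both marks, so the separation at these genes is no added support. Other promoters named by the rule were Dll4, a Notch ligand, at 8.27, the transcription factor genes Tcfap2a at 8.27, Ebf3 at 8.16, Barx2 at 8.05, Gsc at 8.03, Gata6 at 7.94 and Foxc2 at 7.93, and Ddn at 8.14. At these promoters fitted differences depend on the 1 read added to each count, since H3K9me2 had at most 6 reads in any library. With 1 H3K9me2 read in all, Dll4 had a ratio of scaled reads of 1199 (exact 95% interval 215 to 47374) and Ddn of 1083 (194 to 42811), and Ebf3, with 2 reads, of 632 (175 to 5222).

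Under the same rule, the promoters with the strongest H3K9me2 excess were more modest and more mixed. Igll1, an immunoglobulin light chain-like gene of early B cells (chromosome 16, 16860764 to 16864078), had 24, 25 and 34 H3K9me2 reads and 3, 6 and 3 H3K27me3 reads, with 11 input reads. H3K9me2 lay at 1.37 and H3K27me3 at -1.53 over input, a difference of -2.89 (SE 0.35, limma adjusted p = 3.5e-05). Actbl2, an actin-like gene, had 22, 26 and 27 against 9, 4 and 6, a difference of -2.22 with H3K9me2 at 0.58. Olfr510, an olfactory receptor gene, had 27, 30 and 30 against 7, 11 and 5, a difference of -2.19, but its H3K9me2 level of 0.13 was close to the input. Col20a1, a collagen gene, had 19, 29 and 29 against 11, 5 and 10, with H3K9me2 at 1.38 and a difference of -1.84. That the libraries of both marks did not overlap at these genes was a condition of the rule. The others named were Gm17448 at -2.58, Gm17650 at -2.03, 1700012B15Rik at -2.02, the mucin gene Muc3 at -1.98, Gm9938 at -1.93, Ldlrad1 at -1.87, Dub1 at -1.86 and 5830462I19Rik at -1.83.

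Lists of genes were read against the background of all promoters, of which 59.4% were higher in H3K27me3 and 7.48% in H3K9me2, with a median difference of 1.27. Developmental regulators stood at the H3K27me3 end. All 40 Hox promoters were higher in H3K27me3, with median levels of 4.65 for H3K27me3 and -2.31 for H3K9me2 and a median difference of 6.92. Of 114 homeobox genes outside the Hox clusters, 113 were higher in H3K27me3 (median difference 6.30). Of 103 lineage factors of the Sox, Fox, Gata, T-box and bHLH families, 94 were (5.32), and of 67 Wnt, Fgf, Bmp and Gdf ligands, 60 were (4.62), with none higher in H3K9me2 in these 4 lists. Pax6, a regulator of eye and brain, had 341, 417 and 345 H3K27me3 reads and 2 H3K9me2 reads in each library (difference 6.60). T, the mesoderm factor Brachyury, differed by 6.75, Neurog2, a neurogenic factor, by 7.70, Cdx2, a trophectoderm and hindgut factor, by 6.32, Sox17, an endoderm factor, by 5.18, and Shh, a morphogen, by 6.66. Gata4, another endoderm factor, was the lowest of these at 1.27, with 76, 44 and 60 H3K27me3 reads against 13, 22 and 22. That difference equalled the median of all promoters at this precision, while its gene body differed by 2.90. The promoter was taken at the outermost start of its 72.8 kb gene record, 1 tile with 25 CpG sites. The others named with it had from 41.5 (Shh) to 124 (Neurog2) per tile, and other starts of Gata4 were not tested. Germline genes were also mostly higher in H3K27me3, at 27 of 31 promoters, with a median H3K27me3 level of 2.05 and an H3K9me2 level of -0.30 nearer the input than in the other lists at this end. Of 31 imprinted gene promoters, 24 were higher in H3K27me3 and 2 in H3K9me2 (median difference 2.08), and Cdkn1c, a growth-restraining cell cycle inhibitor, differed by 7.32, with 2 H3K9me2 reads in all and a ratio of 357 (exact 95% interval 98.4 to 2949).

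Neuronal adhesion genes were called mostly for H3K27me3 at the promoter and mostly for H3K9me2 over the gene body. Of 74 promoters of neuronal adhesion genes, 63 were higher in H3K27me3 and 2 in H3K9me2, with a median difference of 2.90, but of 75 gene bodies 15 were higher in H3K27me3 and 46 in H3K9me2, with a median of -0.38. The background for gene bodies was 15030 of 22977 passing (65.4%), 9295 (40.5%) higher in H3K27me3 and 5735 (25.0%) in H3K9me2, with a median difference of 0.18. Nrg3, a neuregulin gene of 1104 kb, had 212, 308 and 198 H3K27me3 reads against 0, 2 and 3 at its promoter, a difference of 6.35, and a gene body difference of -0.64 (SE 0.11, limma adjusted p = 0.0027). Sorcs3, a sorting receptor gene, differed by 6.10 at the promoter and -0.68 over the body. Cntnap1 was on the H3K27me3 side in both places, with 6.18 at the promoter and 4.34 over its short body. Ion channel and neurotransmitter receptor genes stayed on the H3K27me3 side by their medians. They were higher in H3K27me3 at 138 of 173 promoters (median difference 3.56) and at 92 of 174 bodies, with 41 bodies higher in H3K9me2 (median 0.35). Kcnd3, a potassium channel gene, had a promoter difference of 7.01 and a body in which both marks lay above the input, H3K27me3 at 0.73 and H3K9me2 at 0.80, with a difference of -0.07 that did not pass (limma adjusted p = 0.55).

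The combination of promoter and body calls was also counted over all genes. Among 12002 genes of at least 10 kb, 3867 (32.2%) were higher in H3K27me3 at both promoter and body, and 1801 (15.0%) were higher in H3K27me3 at the promoter and in H3K9me2 over the body. The opposite, H3K9me2 at the promoter and H3K27me3 over the body, occurred at 23. Genes that changed sides in the first way had a median length of 89.0 kb, against 25.7 kb for those with H3K27me3 in both places. Their promoters had median levels of 0.46 for H3K27me3 and -1.80 for H3K9me2, and 720 of them had H3K27me3 at least 1.5-fold above the input. Their bodies had -0.92 for H3K27me3 and -0.20 for H3K9me2, so that the body call came from low H3K27me3 beside H3K9me2 near the input. Over all bodies higher in H3K9me2 the same held, with median levels of -0.83 for H3K27me3 and -0.05 for H3K9me2, and all 3 H3K9me2 libraries above the input in 38.2%. With medians set to 0, 7490 bodies were higher in H3K27me3 and 8877 in H3K9me2.

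Named gene bodies showed both kinds. Skor1, Nkx2-2, Nr2f2, Sp9 and Hoxc6, all but the corepressor Skor1 encoding transcription factors, led for H3K27me3 with differences of 7.63, 7.44, 7.31, 7.09 and 6.82. Nkx2-2 had 2761, 3606 and 2972 H3K27me3 reads against 16, 10 and 14. Ppp2r1a, a phosphatase scaffold subunit, had 72, 47 and 47 H3K27me3 reads, 147, 207 and 140 H3K9me2 reads and 193 input reads, which put H3K27me3 at -2.02, H3K9me2 at -0.12 and the difference at -1.90 (SE 0.17, limma adjusted p = 0.00013). Wdr1, Srrm2, Fam160a2, Wdr11 and Msh3 differed by -1.90, -1.87, -1.78, -1.73 and -1.68. None of these 6 had H3K9me2 more than 0.21 above the input.

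Gene families of sensory receptors stood at the H3K9me2 end, mostly through low H3K27me3. Of 1108 olfactory receptor promoters, 35 were higher in H3K27me3 and 377 in H3K9me2. Median levels were -0.55 for H3K27me3 and -0.01 for H3K9me2, and the median difference was -0.56. After GC trends were removed the median difference was 1.11, still below the 1.27 of all promoters. That correction sets each class of GC content near the median of all promoters, so the change of sign follows largely from it. Their bodies counted 41 and 591 of 1109. Vomeronasal receptors counted 6 and 62 of 252 promoters (median difference -0.46), and type 2 taste receptors 0 and 5 of 35 (-0.43). In the prolactin family, hormones of pituitary and placenta, 19 of 27 promoters were higher in H3K9me2 and 1 in H3K27me3. The median difference was -0.93, and after GC correction 0.92, again below the 1.27 of all promoters. The exception was Prlr, the receptor, at 2.58, while Prl6a1 had 31, 48 and 37 H3K9me2 reads against 16, 13 and 19 and differed by -1.55. Keratin and cornified envelope genes were split, 21 and 27 of 128, with both marks above the input at medians of 0.11 and 0.29. Cytochrome P450 and UDP-glucuronosyltransferase genes counted 16 and 22 of 95.

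**Figure D5:**
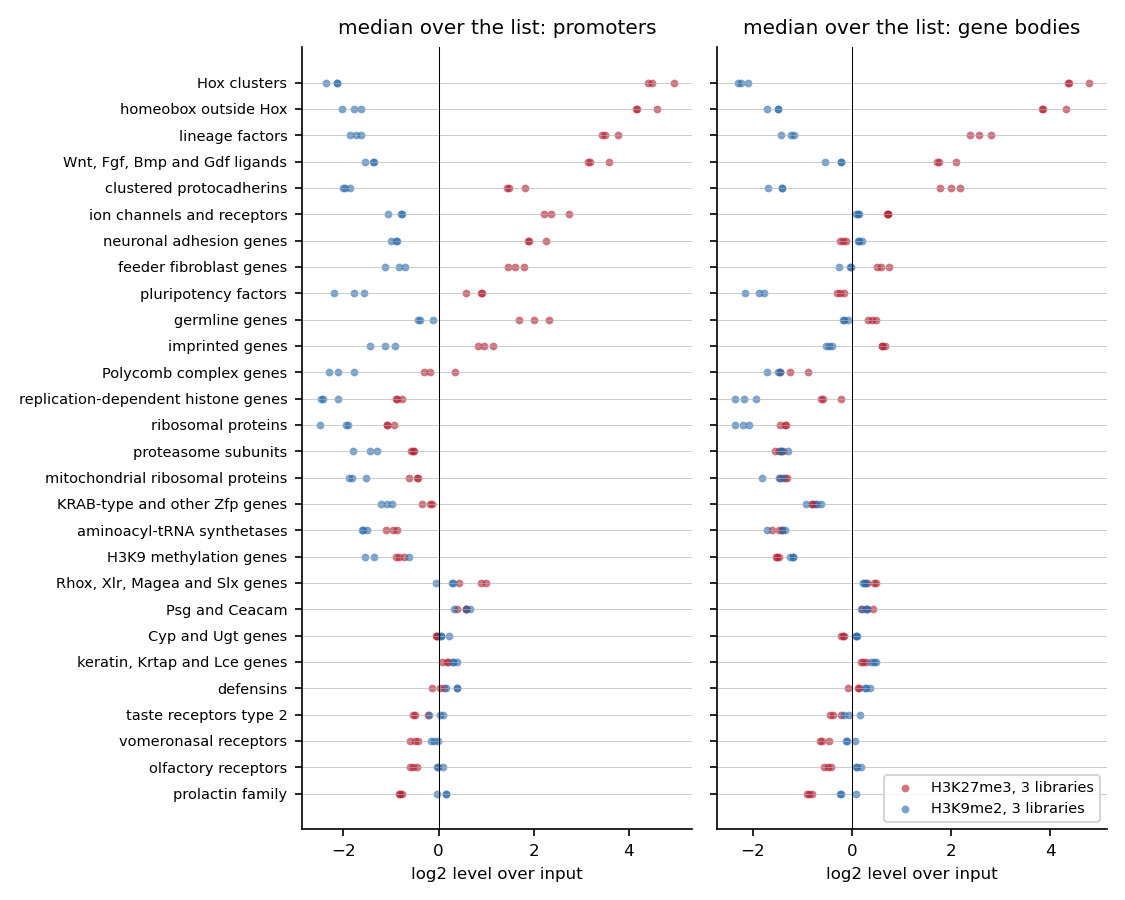
Median level over each gene list as log2 over input (x axis), for promoters (left) and gene bodies (right), 1 point per library, H3K27me3 red and H3K9me2 blue, with lists ordered by the median promoter difference. Hox genes stand at 4.65 and -2.31 at one end and the prolactin family at -0.85 and 0.08 at the other, and the neuronal adhesion list lies near the input over gene bodies.

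Genes used in all cells were low in both marks. Ribosomal protein promoters were called higher in H3K27me3 at 42 of 61 and in H3K9me2 at 1, but their median levels were -1.02 for H3K27me3 and -2.08 for H3K9me2. Histone genes (27 and 0 of 34, levels -0.78 and -2.38), mitochondrial ribosomal proteins (31 and 3 of 56, levels -0.51 and -1.78), proteasome subunits (21 and 2 of 35) and aminoacyl-tRNA synthetases (10 and 3 of 23) resembled them. Their median differences, 1.20 for ribosomal, 1.39 for histone, 1.08 for mitochondrial ribosomal, 1.15 for proteasome and 0.67 for synthetase genes, lay around or below the 1.27 of all promoters, so all but the histone genes would turn to the H3K9me2 side if that median were set to 0. KRAB-type and other Zfp genes, at 177 and 26 of 320 with a median of 0.98, would too. Psmb8, an immunoproteasome subunit that most cells switch on only on stimulation, stood apart from the proteasome list with 251, 334 and 240 H3K27me3 reads against 7, 3 and 14 (difference 4.78). Copies of gene families share sequence, and reads of low mapping quality had been discarded, so values for receptor, prolactin, Zfp and histone families are uncertain for near-identical members.

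Markers of the labelled cells and of feeder fibroblasts were examined as a check of what the sample could hold. Pou5f1, the core pluripotency factor Oct4, had 9, 9 and 8 H3K27me3 reads and 11, 10 and 6 H3K9me2 reads against 27 input reads, low in both marks with a difference of -0.35 that did not pass (limma adjusted p = 0.33). Nanog differed by 0.68 (limma adjusted p = 0.037) with levels of -0.59 and -1.27, a call lost on leaving out any of 5 of the 6 libraries. Zfp42 and Dppa4 had too few reads to be tested. Klf4 had 146, 100 and 221 H3K27me3 reads against 0, 3 and 5 (difference 5.35, H3K27me3 at 2.20), and Sox2 differed by 3.17 with H3K27me3 at 0.61. Esrrb, Sall4 and Lin28a, further pluripotency genes, differed by 1.33, 1.18 and 2.38. Over the whole list of pluripotency factors, 15 of 18 promoters were higher in H3K27me3 and none in H3K9me2. This and the counts that follow compare with 59.4% and 7.48% of all promoters. Of 14 feeder fibroblast genes, 9 were higher in H3K27me3, close to the share of all promoters, and none in H3K9me2. Their median levels were 1.63 and -0.88. Col1a1, a fibroblast collagen gene, had 142, 135 and 123 reads against 4, 4 and 4. Reads from feeder cells in these libraries were not tested. Of the genes of the marks' own machinery, Polycomb complex genes were higher in H3K27me3 at 21 of 27 promoters, with a median H3K27me3 level of -0.12, and H3K9 methylation genes at 6 of 15, with 1 higher in H3K9me2. Ezh2 (0.71), Suz12 (1.63) and Ehmt1 (1.66) passed with both marks below the input, Ezh2 not when any of the same 5 libraries was left out, Eed (0.08) did not, and the housekeeping gene Actb differed by 0.17 (limma adjusted p = 0.75). Dnmt1, not deleted in these cells, differed by 1.23 at its promoter with levels of -1.18 and -2.41. Of the differences in this paragraph, those of Pou5f1, Nanog, Sall4, Ezh2, Eed, Actb and Dnmt1 lay below the median of all promoters.

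Between chromosomes the balance varied little. The difference was highest on chromosome 11 at 0.34 (SE 0.03), followed by chromosome 19 at 0.20 and chromosome 17 at 0.15, and was lowest among autosomes on chromosome 14 at -0.15. The X chromosome had 0.02 and the Y chromosome -0.65 (SE 0.16). The Y value rested on only 1040 tiles, against 28709 on chromosome 19, the fewest among the others. With the mean of tile values in place of summed reads, chromosome 17 turned to -0.016 and 19 chromosomes in all were negative, against 11 here. Only Y lay below the -0.29 of the median 100 kb window.

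The division seen in control cells was looked for in 6 libraries that had not been used to make it, the H3K27me3 and H3K9me2 libraries of Dnmt1 knockout cells, 3 per mark. Of 7070 windows of 100 kb higher in H3K27me3, 5077 (71.8%) had all 3 knockout H3K27me3 libraries above all 3 knockout H3K9me2 libraries and 61 the opposite. Of 14286 windows higher in H3K9me2, 10213 (71.5%) kept their direction in this way and 16 had the opposite. Over all 25514 windows, whatever their call, the knockout libraries did not overlap in 22.6% towards H3K27me3 and 44.0% towards H3K9me2. For promoters the shares were 66.9% for H3K27me3 and 59.6% for H3K9me2, against 43.7% and 10.9% of all promoters tested. For gene bodies they were 67.9% and 80.1%, against 30.8% and 32.1% of all bodies tested. The knockout libraries share the antibodies and the input with the control libraries.

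The difference between marks was also compared between day 4 and day 8 over 100 kb windows, with 1 library per mark at day 4, so that the spread came from the day 8 pairs alone. The interaction of mark and day passed at 9 of 25514 windows (0.0353%, limma adjusted p under the same threshold), against 109 at an unadjusted p under 0.05, and all 9 windows held 31 reads or fewer in every library.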

How the data were processed

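ChIP-seq libraries of control ESCs were grouped by mark from their labels. By the methods and submitters' notes, the authors trimmed reads with Trim Galore, aligned them to NCBIM37 with Bowtie2 2.2.9 and discarded mapping qualities under 20; duplicate removal is not given in the sources used here. The authors deposited log2 observed over expected reads per 2 kb tile (the methods say 1 kb), with input not subtracted and an empty tile written as 0.9 of a read. Whole reads were recovered from these log2 values within 0.01 of a read.

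Reads were summed over 10 kb and 100 kb windows, promoters (tiles overlapping the 1 kb before a start site, which neighbouring genes may share) and bodies of 23640 genes (GENCODE vM1 on NCBIM37). 1 read was added and the log2 over expected tested, and tiles were tested as deposited. H3K27me3 and H3K9me2 were compared with limma 3.58.1 in R 4.3.3 (3 libraries against 3, lmFit and eBayes, two-sided, Benjamini-Hochberg threshold 0.05, mean of at least 5 reads). The test of marks by day added an interaction term. Single values used exact permutation tests, and intervals are exact binomial 95% limits of counting error. The fit was tested on simulated data.

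Genes named were the 12 promoters and 6 gene bodies of at least 10 kb per direction with the largest difference among those past the threshold (protein-coding, no overlap of libraries, mean of 20 reads or more in the higher mark, 100 kb apart), the 5 windows per direction at least 1 Mb apart with 100 input reads, 3 members of each of 28 lists, and fixed genes and markers. Some items that this rule gave are not reported here. Other genes were named after their values were seen. Members and lists were chosen with earlier results of these data known. Alternatives covered the summary of reads, scaling, GC, filters, fits, folds, blocks and left-out libraries.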

Additional observations from a re-analysis of the deposited data

Results flagged for a closer look

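limma's interaction of mark and day passed in 9 windows of 100 kb. Day 4 had 1 library per mark, so the spread came from the day 8 pairs alone, the day 4 libraries were assumed to vary like them, and a change with day cannot be told apart from a change of 1 library. Given as the day 8 difference minus the day 4 difference, the value was -2.52 on chromosome 17 from 6700001 (Gm2833), -1.83, -1.91 and 1.51 on chromosome X from 32800001, 29000001 and 122500001, 2.11, -2.22 and -1.55 on chromosome 7 from 20700001, 21100001 and 21000001 (vomeronasal receptor genes), 2.10 on chromosome 12 from 23800001 and 1.43 on chromosome 1 from 158000001 (Fam163a). The smallest adjusted p was 1.6e-07, at the window on chromosome 17, where H3K27me3 had 29, 15 and 17 reads and H3K9me2 had 0, 4 and 3, against 3 input reads. These windows held 3 to 19 input reads, and with windows limited to 100 input reads or more, a limit chosen after seeing the data, none passed.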

How the results depend on the processing

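Counts fell below their main values by over 1.5 times in 6 cases: with a 2-fold condition, to 2800 windows of 100 kb, 50714 of 10 kb and 6989 gene bodies; with at least 20 reads, to 128114 tiles and 9159 promoters; and with day 8 alone, to 209826 tiles. The limit of 20 reads also left fewer regions to test, 265834 tiles and 11667 promoters. Of those, 48.2% of tiles and 78.5% of promoters passed, against 32.7% and 66.9% in the main results. Among 100 kb windows that were also 2-fold different, 92.0% kept their direction in knockout libraries. These windows were picked for large differences. Over all windows tested, the knockout libraries did not overlap in 22.6% towards H3K27me3 and 44.0% towards H3K9me2. The share of 10 kb windows above the input was 20.8% (H3K27me3) and 28.3% (H3K9me2) at 25% over input, 6.67% and 1.54% at 2-fold, and 12.8% and 12.2% with the mean of tile values, where the groups overlapped (exact permutation p = 0.3). For promoters it was 49.1% and 14.4% at 25% over input, 33.4% and 3.02% at 2-fold, and 39.7% and 6.60% with 10 or more input reads per tile, a limit chosen after seeing the data.

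In the division of 10 kb windows, H3K9me2 alone took 33633 and both marks 8115 at 25% over input, and at 2-fold H3K27me3 alone took 12920, H3K9me2 alone 834 and both 109. Of promoters, H3K9me2 alone took 845 and both 733 at 25% over input, 148 and 68 at 2-fold, and both took 148 with 10 or more input reads. Without the first day 8 libraries, both marks took 4115 windows and 623 promoters. The mean of tile values gave a contrast of 4.41 between the CpG-densest and CpG-poorest tiles against 5.80 from summed reads, made 19 chromosomes negative in place of 11, turned chromosomes 8 and X, which had lain at 0.0013 and 0.018, and reversed chromosomes 4 (-0.032), 5 (-0.056), 7 (-0.031), 9 (-0.074), 15 (-0.13) and 17 (-0.016). GC correction took the median differences of olfactory receptors to 1.11 and of the prolactin family to 0.92, below the corrected 1.27 of all promoters. It sets each class of GC content near that median, so the change of sign does not place these families on the H3K27me3 side. The interaction of mark and day passed at 0 windows with 100 or more input reads. Stricter limits leave fewer regions by construction, and the cause of the other changes was not tested.

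Same-numbered libraries of both marks were not treated as pairs in the main fit. Their deviations from the mark means over 100 kb windows correlated at 0.19, -0.29 and -0.45. With 3 libraries per mark, these values cannot decide whether such libraries came from the same cells. With replicate number as a block, 13422 promoters passed, 12149 higher in H3K27me3 and 1273 in H3K9me2, and 20808 windows of 100 kb. The promoter calls of Nanog (adjusted p = 0.078) and Ezh2 (0.066) were lost under the block, and no other call of a named gene was. Both were also lost on leaving out any library but the second day 8 H3K9me2 library. Leaving out 1 library at a time gave 20354 to 21190 windows of 100 kb, 152057 to 163260 of 10 kb and 259417 to 298848 tiles, 12297 to 13648 promoters and 13165 to 14342 gene bodies. The number higher in H3K9me2 moved by over 1.5 times in tiles, from 231038 to 139448 without the first day 8 H3K27me3 library and to 137839 without the first day 8 H3K9me2 library, and in promoters, from 1560 to 1001 without the former. GC correction took promoters to 1017 and day 8 alone to 833. Depth left 2787 promoters untested, and levels far below the input rest on a handful of reads.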

Other observations

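A few gene families not described above differed from the typical promoter. Pregnancy-specific glycoprotein and Ceacam genes, cell surface and secreted glycoproteins many of which are made in the placenta, had median levels of 0.58 for H3K27me3 and 0.50 for H3K9me2, and 6 of 28 promoters were higher in H3K27me3 and 4 in H3K9me2. Defensin genes, which encode antimicrobial peptides, had 0.02 and 0.30, with 7 of 46 promoters higher in H3K27me3 and 12 in H3K9me2. Rhox, Xlr, Magea and Slx genes, families of the germline with many copies, had 0.74 and 0.12, with 10 and 2 of 28. These counts compare with 59.4% and 7.48% of all promoters. Near-identical copies make the values of single members uncertain. On the Y chromosome, with only 1040 tiles, the H3K27me3 libraries lay at -0.42, -0.75 and -0.21 over input. The H3K9me2 libraries lay at 0.18, 0.26 and 0.14.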
